A study of Rattus norvegicus with 56 samples.

Results

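miR-122-5p, miR-192-5p and miR-194-5p, microRNAs known from liver and gut, were followed through rat fetal myocardium, amniotic fluid and maternal serum. They were picked by name and make up 3 of the 682 mature microRNAs listed in the deposited count tables, which hold 661 microRNAs for myocardium, 523 for amniotic fluid and 518 for serum. All 3 were listed in every table and passed the filter on low counts in every comparison. In control samples miR-122-5p was highest in maternal serum, and miR-194-5p in amniotic fluid, under both scalings tried. miR-122-5p in amniotic fluid was the one member that met the threshold for DE-microRNAs, and that result rested on 1 library.

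The study asked whether circulating microRNAs relate to those of the fetal heart in ventricular septal defect (VSD), an opening in the wall between the ventricles. Sprague-Dawley dams were given dimethadione (DMO, an agent that causes heart malformations) by gavage, 5 ml/kg of a 60 mg/ml solution every 12 h for 6 doses from D8 (embryonic day 8), and dams of the negative control (NC) group were given distilled water. All samples were taken on D19, and the myocardium came from wax blocks. Myocardium and amniotic fluid each had 7 NC samples, 7 samples of the VSD group (DMO-exposed fetuses with a VSD and normal great vessels) and 7 of the non-VSD group (DMO-exposed fetuses whose septum was intact), and maternal serum had 7 NC and 7 VSD samples. Fetuses with other visible defects had been excluded. Serum had no non-VSD group, so there DMO given to the dam and the presence of fetuses with a VSD cannot be told apart. Which dam each sample came from is not given by the labels, so samples that share a litter cannot be told from independent ones, and the p-values measure the spread between samples only.

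A mature microRNA pairs with messenger RNAs mainly through its seed, bases 2 to 8, and lowers their output. miR-122 is the dominant microRNA of hepatocytes, where it supports lipid and cholesterol metabolism, and in blood it is used as a marker of liver injury. miR-192 and miR-194 are made from shared clusters and are abundant in liver, kidney and intestinal epithelium, and miR-215 is the copy of miR-192 in the second cluster.

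The mature sequences of the 3 members and of miR-215 are shown because they tell which members could be confused in counting. They are those of RefSeq (assembly GRCr8), 5′ to 3′, with the seed in capitals.
miR-122-5p: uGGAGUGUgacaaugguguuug
miR-192-5p: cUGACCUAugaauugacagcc
miR-194-5p: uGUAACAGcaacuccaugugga
miR-215: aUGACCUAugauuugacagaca
The seeds of miR-122-5p and miR-194-5p belonged to no other of the 693 mature rat microRNAs of the reference. miR-192-5p shared its seed with miR-215, and over the 21 positions compared, 18 were identical. The differences, counted from 1 at the 5′ end with the base of miR-192-5p first, were C1A, A12U and C20A. miR-215 was listed in the amniotic fluid tables alone, so in myocardium and serum it was not analysed here. Whether its reads were counted as miR-192-5p in those 2 tissues is not given in the sources used here, so levels and ratios of miR-192-5p there may hold miR-215 reads.

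In GRCr8, mature miR-122-5p lies on the plus strand at chr18:61028831-61028852. miR-192-5p lies at chr1:212994232-212994252, also on the plus strand. miR-194-5p is encoded at 2 places with the same mature sequence, in Mir194-2 at chr1:212994038-212994059 and in Mir194-1 at chr13:99382730-99382751. The hairpins of Mir194-2 and Mir192 are 100 bases apart, and those of Mir194-1 and Mir215 are 191 bases apart. The counts of miR-194-5p therefore pool both clusters.

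Total counts were between 1694811 and 9371130 per sample in myocardium, between 78188 and 331787 in amniotic fluid and between 147609 and 581350 in serum. A level is given in CPM, the count of a microRNA per 1000000 counts of its library, so it is a share of the listed microRNAs and not an amount. Since only shares were measured, fewer cells of a type cannot be told apart from less RNA per cell. In myocardium all 8 heart and skeletal muscle microRNAs of the marker list were above 0 in every library. Their summed level was lowest in NC replicate 2 (16579 CPM), VSD replicate 1 (19902 CPM) and VSD replicate 4 (28289 CPM), and the same 3 libraries had the highest sums of 8 epithelial microRNAs (17532, 21155 and 15649 CPM). The median muscle sums were 81239 CPM in the NC, 58922 CPM in the VSD and 85960 CPM in the non-VSD group. Myocardial results are therefore also given without these 3 libraries.

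In the NC samples, miR-122-5p was highest in maternal serum. Its CPM ranged from 164 to 1765 in myocardium (median 501), from 379 to 1663 in amniotic fluid (median 910) and from 5356 to 33552 in serum (median 8167). No serum sample overlapped either other tissue, while myocardium and amniotic fluid overlapped widely. How many of all listed microRNAs also separate these tissues is not given here. Lack of overlap is therefore not shown to be particular to this or any other member. The mean log2 CPM was 4.31 higher in serum than in myocardium and 3.55 higher in serum than in amniotic fluid (exact two-sided permutation test, adjusted p = 0.000749 over 9 tests for each). The smallest p this design allows is 0.000583 before adjustment. Amniotic fluid was 0.76 above myocardium (exact permutation test, adjusted p = 0.140), a difference that was -0.63 with TMM scaling (which takes most microRNAs as unchanged) over the NC samples of all 3 tissues. With that scaling the differences of serum from myocardium and from amniotic fluid were 4.89 and 5.51.

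As shares of the library, miR-192-5p and miR-194-5p were highest in amniotic fluid, which for miR-192-5p against serum did not hold under TMM scaling across tissues. miR-192-5p ranged in NC samples from 239 to 408 CPM in myocardium (median 337), from 3544 to 12033 CPM in amniotic fluid (median 5964) and from 1202 to 3469 CPM in serum (median 1801). The 3 tissues did not overlap. Mean log2 CPM was 4.24 higher in amniotic fluid than in myocardium and 1.61 lower in serum than in amniotic fluid, a fold of 0.327 (exact permutation test, adjusted p = 0.000749 for both, difference -1.61). With TMM over the NC samples of all 3 tissues, serum was instead 0.35 higher than amniotic fluid (exact permutation test, adjusted p = 0.252), and amniotic fluid was 2.85 above myocardium.

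miR-194-5p was the least abundant of the members in myocardium and serum. In NC samples it ranged from 19.01 to 59.2 CPM in myocardium (median 40.7), from 522 to 2259 CPM in amniotic fluid (median 1276) and from 50.4 to 181 CPM in serum (median 109). Amniotic fluid stood above both other tissues in every sample, and serum and myocardium overlapped. Its mean log2 CPM was 4.95 higher in amniotic fluid than in myocardium (adjusted p = 0.000749) and 1.36 higher in serum than in myocardium (adjusted p = 0.00131, exact permutation tests). With TMM across tissues these differences were 3.57 and 1.94, and serum was 1.63 lower than amniotic fluid (-1.63, against -3.59 as shares). Extraction kits differed between all 3 tissues, and the library kit and sequencer of amniotic fluid differed from those of the others, so tissue and kit cannot be told apart in these comparisons.

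**Figure D1:**
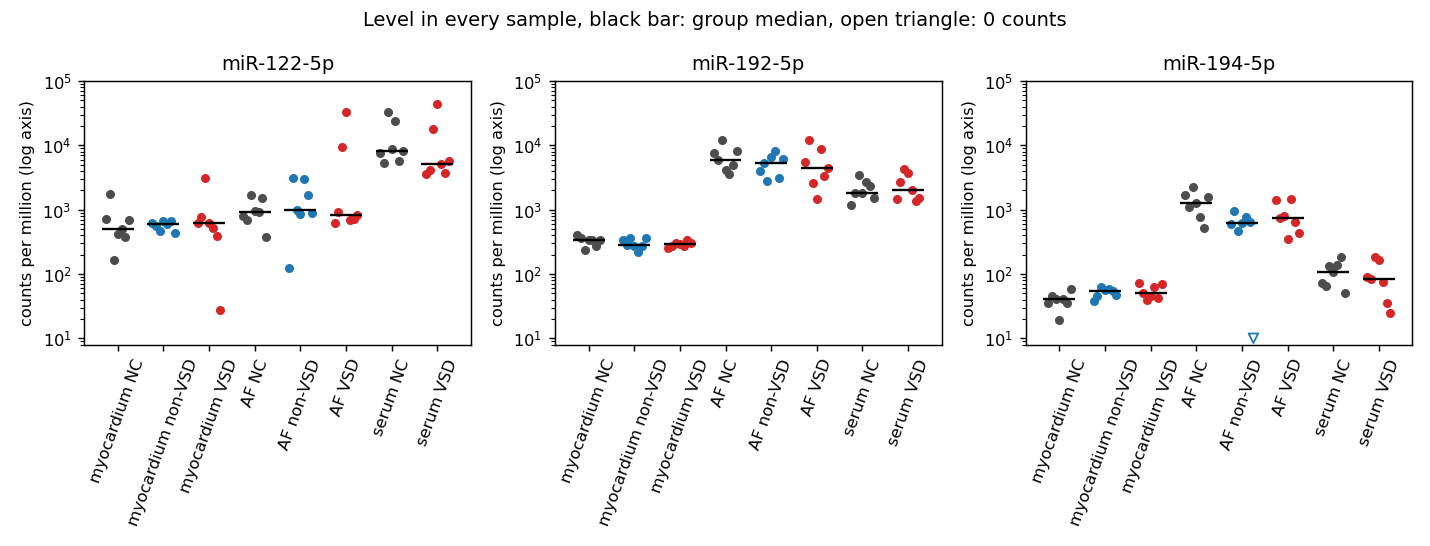
CPM of the 3 members (log axis) in each sample of the 8 groups, with AF for amniotic fluid, grey points for NC, blue for non-VSD and red for VSD, and a black bar at the group median. miR-122-5p is highest in serum, miR-192-5p and miR-194-5p in amniotic fluid (with TMM across tissues, miR-192-5p is 0.35 log2 units higher in serum), and single VSD libraries of miR-122-5p reach 3129 CPM in myocardium, 33502 CPM in amniotic fluid and 44049 CPM in serum.

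The members also stood in different proportions in each tissue. The ratio of miR-122-5p to miR-192-5p counts had a median of 1.92 over the 21 myocardium libraries, 0.185 over the 21 amniotic fluid libraries and 3.97 over the 14 serum libraries. In amniotic fluid, miR-122-5p exceeded miR-192-5p in VSD replicates 3 and 4 only, with ratios of 3.64 and 23.2, and the other 19 libraries lay at or below 0.583. In myocardium the ratio was under 1 in NC replicate 3 (0.684) and VSD replicate 7 (0.0923). The 3 members together made up a median of 0.0902% of the counts in myocardium, 0.775% in amniotic fluid and 0.855% in serum.

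miR-192-5p and miR-194-5p share a cluster, yet their ratio was not one fixed value. Its median was 6.17 in myocardium, 5.36 in amniotic fluid (20 libraries, since 1 had no miR-194-5p count) and 24.7 in serum. It ranged from 3.42 to 17.6, from 3.20 to 16.2 and from 12.9 to 61.1 in that order, so the serum range lay mostly above the others. The passenger arms miR-122-3p, miR-192-3p and miR-194-3p were at or near 0: their highest levels in any library were 12.9, 48.2 and 60.3 CPM. miR-122-3p was not listed for amniotic fluid.

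**Figure D2:**
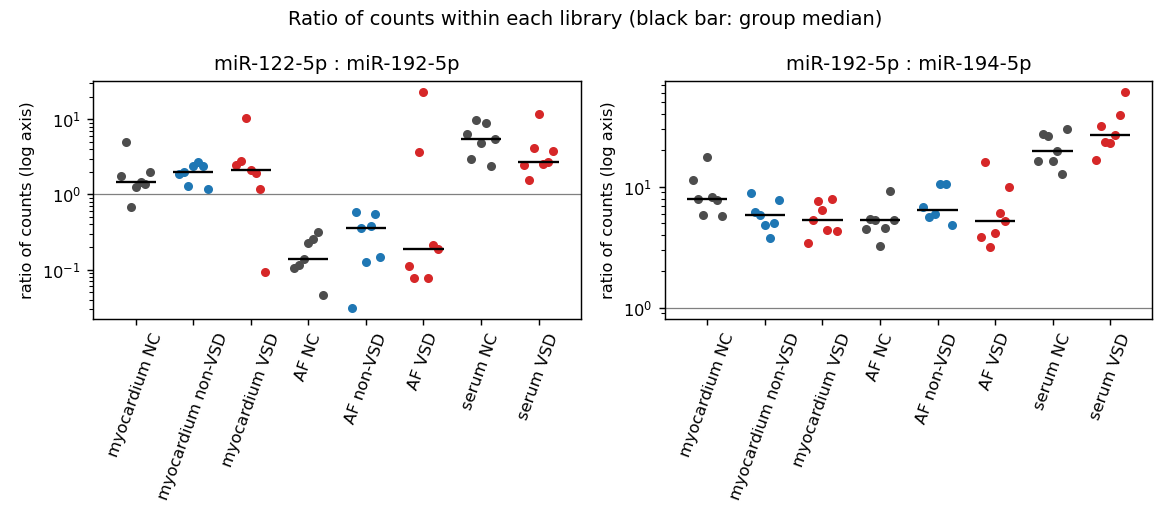
Ratio of counts within each library (log axes) of miR-122-5p to miR-192-5p on the left and of miR-192-5p to miR-194-5p on the right, by group, with AF for amniotic fluid and a black bar at the group median; the grey line marks a ratio of 1. The left ratio lies under 1 in 19 of the 21 amniotic fluid libraries and the right one is highest in serum, with medians of 19.6 (NC) and 26.7 (VSD).

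Groups were compared within each tissue by edgeR's quasi-likelihood test on the counts, after TMM scaling, with fits and adjustment over all microRNAs that passed the filter. DE-microRNAs were called at a fold of 2 or more in either direction together with an unadjusted p below 0.05. No member reached a Benjamini-Hochberg adjusted p below 0.05 by edgeR in any of the 7 comparisons, where 0.426% (VSD) and 0.219% (non-VSD) of all microRNAs tested against NC did in myocardium, 4.96% in non-VSD amniotic fluid and 0 in the other 4 comparisons. The comparisons of the VSD and of the non-VSD group use the same NC samples.

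In myocardium, 0 of the 3 members met the DE-microRNA threshold in the VSD group, where 6.82% of the 469 microRNAs tested met it (32 in all); DESeq2 and limma made 0 calls among the members as well. Of the 3, miR-192-5p had the lowest p. It was measured at 239 to 408 CPM in NC samples (median 337), at 252 to 336 CPM in VSD samples (median 296) and at 221 to 366 CPM in non-VSD samples (median 278). All 7 VSD samples lay under the NC median, and none lay under the lowest NC sample. The edgeR log2 difference between VSD and NC was -0.59 ± 0.19 (SE, n = 7 and 7), a fold of 0.665, with p = 0.00836 (exact two-sided permutation test of mean log2 CPM, p = 0.00758). The edgeR adjusted p was 0.103. It was 0.0381 without NC replicate 2, and other settings gave from 0.0247 (DESeq2) to 0.507. Without the 3 libraries poor in muscle microRNAs the log2 difference was -0.54 (edgeR, adjusted p = 0.165).

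That difference depended on the scaling. With library size only, the log2 difference of miR-192-5p between VSD and NC myocardium was -0.18 (edgeR, adjusted p = 0.507), while the median of all microRNAs tested moved from -0.05 to 0.32. Relative to that median the member was lower under both scalings. With library size only the exact permutation test gave p = 0.162. In the non-VSD group the log2 difference of miR-192-5p from NC was -0.35 ± 0.19 (SE, edgeR, adjusted p = 0.382), and VSD and non-VSD differed by -0.19 with a 95% interval from -0.57 to 0.19. Without the 3 libraries these were -0.41 and -0.10.

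Markers of other cell types also differed in VSD myocardium. All 4 red blood cell microRNAs of the marker list met the threshold as lower in VSD myocardium (median log2 difference -2.37, against -0.05 over all microRNAs tested), with summed levels of 3266 to 73069 CPM in NC and 4766 to 24223 CPM in VSD samples. Among 4 white blood cell microRNAs 2 were called lower (median -0.98), as were 2 of the 8 muscle microRNAs (median -0.57, 1 of 8 above 0). Levels of the muscle microRNA miR-206-3p had a higher median in VSD samples (78.8 CPM, at most 323 CPM) than in NC samples (31.8 CPM). In NC samples it reached 3406 CPM. The 8 epithelial microRNAs all had values above 0 (median 1.20), with 0 calls, or 5 without the 3 libraries poor in muscle microRNAs, and their sums were 167 to 17532 CPM in NC and 1910 to 21155 CPM in VSD samples. Their part in the values of the members was not tested.

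miR-122-5p was the most variable member in myocardium. It ranged from 27.6 to 3129 CPM in the VSD group (median 617), a span of 113-fold, from 164 to 1765 CPM in the NC group (median 501) and from 430 to 656 CPM in the non-VSD group (median 593). VSD replicate 3, the smallest myocardial library, was highest with 5303 of 1694811 counts, and VSD replicate 7 was lowest with 249 counts. The non-VSD samples lay within 1.52-fold of each other, inside the range of both other groups. The log2 difference between VSD and NC was 0.11 ± 0.65 (SE, 95% interval -1.27 to 1.49, edgeR, adjusted p = 0.936). It was -0.84 without VSD replicate 3 (edgeR, adjusted p = 0.458), 0.60 without the 3 libraries poor in muscle microRNAs, and -0.56 by limma.

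miR-194-5p in myocardium was measured at 19.01 to 59.2 CPM in NC (median 40.7), 38.9 to 73.6 CPM in VSD (median 50.7) and 37.5 to 63.0 CPM in non-VSD samples (median 54.2). In each DMO group 6 of 7 samples lay above the NC median, and the ranges overlapped. The edgeR log2 differences from NC were 0.04 ± 0.24 (VSD, adjusted p = 0.936) and 0.14 ± 0.22 (non-VSD, adjusted p = 0.845). With library size only they were 0.48 (adjusted p = 0.223) and 0.39 (adjusted p = 0.325), and the median of all microRNAs tested stood at 0.32 and 0.13. Without the 3 libraries poor in muscle microRNAs they were 0.0054 and 0.089.

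In the non-VSD myocardium 0 of the 3 members met the threshold against NC, where 4.17% of 456 microRNAs did, and miR-122-5p differed by -0.30 ± 0.31 (edgeR, adjusted p = 0.689). Without NC replicate 2, the one of the 3 libraries in this comparison, that value was -0.0095 (edgeR, adjusted p = 0.992). In this comparison 3 of 4 red blood cell microRNAs were called lower (median -1.61), as were 1 of 4 white blood cell and 1 of 8 muscle microRNAs. Of the muscle microRNAs, miR-206-3p had a median of 34.8 CPM against 31.8 CPM in NC, where it reached 3406 CPM. Of the 8 epithelial microRNAs 0 had values above 0 (median -0.25), against 8 without NC replicate 2 (median 0.82), with 0 called higher in both. The part of these in the values of the members was not tested. Between VSD and non-VSD myocardium, fitted with the NC samples, 0 of 3 members met the threshold, against 5.18% of 483. miR-122-5p differed by 0.46 (95% interval -0.69 to 1.60, edgeR, adjusted p = 0.694), by -0.45 without VSD replicate 3, and by 0.64 without the 3 libraries. miR-194-5p differed by -0.05 (95% interval -0.49 to 0.39), and by -0.03 without them.

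In amniotic fluid of the VSD group, 1 of the 3 members met the DE-microRNA threshold, where 6.94% of 245 microRNAs did (3.67% as higher). It was miR-122-5p, which rose. The NC samples held 784, 680, 1663, 944, 910, 1522 and 379 CPM in replicates 1 to 7. The VSD samples held 624, 909, 9299, 33502, 689, 714 and 812 CPM. VSD replicates 3 and 4 were above every NC sample, and the other 5 VSD samples were all under the NC median of 910 CPM. The median was thus lower in the VSD group, at 812 CPM, although the fitted log2 difference was 2.998 ± 0.92 (SE, 95% interval 1.08 to 4.92). The edgeR test gave p = 0.00415 (adjusted p = 0.174), and the exact two-sided permutation test of mean log2 CPM, which weighs each sample alike, gave a difference of 1.09 and p = 0.336.

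In VSD replicate 4, miR-122-5p was the fifth most counted microRNA and took 3.35% of the library (8161 of 243598 counts, exact 95% interval 3.28% to 3.42%, counting error only). In replicate 3 it took 0.930% (1795 of 193037 counts, interval 0.888% to 0.974%). In the other 5 libraries of the group its share was between 0.0624% and 0.0909%. Without replicate 4 the log2 difference was 1.07 (edgeR, adjusted p = 0.454), and the call was lost. Without replicate 3 it was 3.02 (edgeR, adjusted p = 0.212).

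Without replicate 4 the difference of mean log2 CPM was 0.35 (exact permutation test, p = 0.670). limma gave 1.12 (adjusted p = 0.524) and DESeq2 gave 3.05 (adjusted p = 0.0541), within a range of adjusted p from 0.0541 to 0.602 over 6 settings. The fits on counts without a block called miR-122-5p, and limma on log values did not.

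Replicate 4 was extreme in other microRNAs too. VSD replicate 4 had the lowest miR-192-5p (1445 CPM), the lowest miR-194-5p (349 CPM) and the lowest miR-215 (357 CPM) of its group. It also had the highest sum of heart and skeletal muscle microRNAs of all 21 amniotic fluid libraries, 231997 CPM, with 7 of the 8 above 0, where NC samples ranged from 469 to 57798 CPM and VSD samples from 590 to 231997 CPM. VSD replicate 3 had the fourth highest sum (46691 CPM), while VSD replicate 1, with the second highest (158331 CPM), had the lowest miR-122-5p of the group. In replicate 4 the sums of red blood cell (18210 CPM) and white blood cell microRNAs (1092 CPM) were the lowest of the group. Over the whole VSD group against NC, all 4 red blood cell microRNAs had values above 0 (median log2 difference 2.02, 2 called higher), as had all 4 muscle microRNAs tested (median 1.79, 1 called higher). Of the 3 white blood cell microRNAs tested 1 was called higher (miR-142-3p, 2.36), and of 8 epithelial ones 0 were called (median -0.17). The part of these in the miR-122-5p level was not tested.

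**Figure D3:**
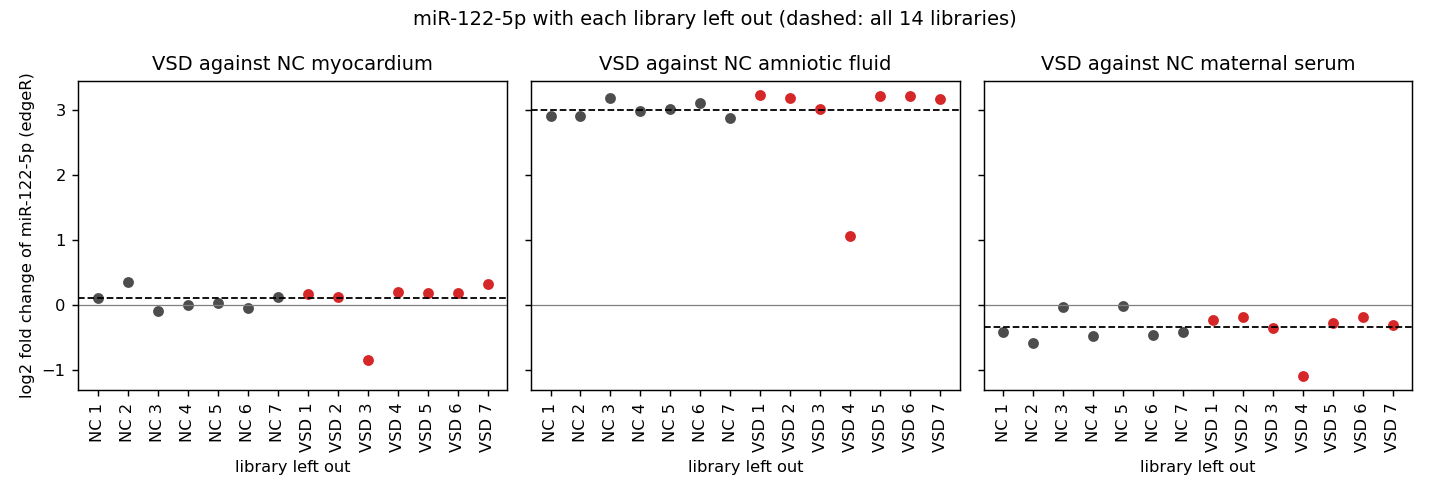
edgeR log2 fold change of miR-122-5p in VSD against NC samples with each library left out in turn, for myocardium, amniotic fluid and serum; grey points leave out an NC and red points a VSD library, and the dashed line is the value with all 14. A single VSD library moves each value most: replicate 3 in myocardium (to -0.84), replicate 4 in amniotic fluid (to 1.07) and replicate 4 in serum (to -1.09). In serum, leaving out single NC libraries brings the value as high as -0.014.

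miR-192-5p and miR-194-5p did not meet the threshold in VSD amniotic fluid. miR-192-5p was measured at 3544 to 12033 CPM in NC (median 5964) and at 1445 to 11931 CPM in VSD samples (median 4382), and the log2 difference was -0.24 ± 0.37 (95% interval -1.03 to 0.54, edgeR, adjusted p = 0.799). miR-194-5p was measured at 522 to 2259 CPM in NC (median 1276) and at 349 to 1465 CPM in VSD samples (median 737), and the log2 difference was -0.61 ± 0.35 (edgeR, adjusted p = 0.445). For both, 5 of the 7 VSD samples lay under the NC median and the ranges overlapped. miR-215, the seed relative of miR-192-5p, met the threshold as lower (log2 difference -1.04 ± 0.47, edgeR, adjusted p = 0.345), with 1349 to 7397 CPM in NC and 357 to 4762 CPM in VSD samples.

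In the non-VSD amniotic fluid, 0 of 3 members met the threshold, where 12.4% of 242 microRNAs did. miR-194-5p came closest. Its non-VSD samples held 589, 955, 474, 624, 765, 652 and 0 CPM in replicates 1 to 7, all under the NC median of 1276 CPM, and 2 of the 7 were under the lowest NC sample (522 CPM). The log2 difference was -1.12 ± 0.56 (SE, n = 7 and 7), with edgeR p = 0.0602 (adjusted p = 0.280), while the exact permutation test of mean log2 CPM gave a difference of -1.70 and p = 0.00874.

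Non-VSD replicate 7 had 0 of 94282 counts of miR-194-5p, which allows a level of up to 31.8 CPM, while each of the other 20 amniotic fluid libraries had at least 51 counts. In the same library 4 microRNAs with 10 or more counts in every other library were at 0, of which miR-194-5p was the one most counted elsewhere. miR-192-5p was not low there, at 6088 CPM. Without this library the log2 difference of miR-194-5p was -0.94 (edgeR, adjusted p = 0.130), just short of the 2-fold limit, and the exact permutation test gave -0.89 and p = 0.0175. DESeq2, the fit of all 3 groups and the fit without a filter put miR-194-5p past the threshold (-1.09, -1.19 and -1.12), and limma gave -2.15 without passing it, with adjusted p from 0.168 to 0.405 over 6 settings. edgeR also did so when NC replicate 6, non-VSD replicate 2 or non-VSD replicate 6 was left out, the lowest value being -1.35.

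For the other members in non-VSD amniotic fluid, miR-122-5p was measured at 126 to 3122 CPM (median 1004) and differed from NC by 0.68 ± 0.51 (edgeR, adjusted p = 0.499). miR-192-5p was measured at 2834 to 8072 CPM (median 5353) and differed by -0.33 ± 0.30 (edgeR, adjusted p = 0.634). Both ranges overlapped with NC. For miR-122-5p, 3 of the 7 non-VSD samples lay above every NC sample and 1 lay below every NC sample. The difference of its mean log2 CPM was 0.23 (exact permutation test, p = 0.736). All 4 red blood cell microRNAs met the threshold as higher in this comparison, with sums of 26321 to 85934 CPM against 15338 to 36170 CPM in NC. Their part in the members' values was not tested.

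Between VSD and non-VSD amniotic fluid, 1 of 3 members met the threshold, where 3.30% of 273 microRNAs did (1.47% as higher). miR-122-5p was higher in the VSD group by 2.31 ± 0.84 on the log2 scale (edgeR, adjusted p = 0.206). Without VSD replicate 4 the value was 0.52 (edgeR, adjusted p = 0.879), and the median was again lower in the VSD group (812 against 1004 CPM). miR-192-5p differed by 0.12 (95% interval -0.62 to 0.86) and miR-194-5p by 0.56 (95% interval -0.51 to 1.63), or 1.59 by limma.

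In maternal serum 0 of 3 members met the threshold, where 4.57% of 219 microRNAs did. miR-122-5p ranged from 5356 to 33552 CPM in NC (median 8167) and from 3640 to 44049 CPM in VSD samples (median 5190). NC replicates 3 and 5 (33552 and 23686 CPM) and VSD replicates 3 and 4 (18013 and 44049 CPM) stood apart from the other 10 libraries, of which the highest held 8751 CPM. Outside VSD replicates 3 and 4, the VSD samples were all under the NC median, and 4 of the 7 were under the lowest NC sample. The log2 difference was -0.34 ± 0.56 (95% interval -1.52 to 0.84, edgeR, adjusted p = 0.808).

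That value moved with single libraries of both groups. Without serum VSD replicate 4 the log2 difference of miR-122-5p was -1.09 (edgeR, adjusted p = 0.302), past the DE-microRNA threshold as lower. Without NC replicate 3 or NC replicate 5 it was -0.03 or -0.01. In the amniotic fluid too, VSD replicates 3 and 4 held the most miR-122-5p, and in myocardium VSD replicate 3 did. The labels do not say whether samples of one number share a dam, so these values stand side by side only. Serum VSD replicate 4 had the highest sum of heart and skeletal muscle microRNAs in serum (22953 CPM), followed by VSD replicate 3 (14336 CPM), NC replicate 5 (13692 CPM) and NC replicate 3 (11529 CPM). The 4 libraries with the most miR-122-5p in serum were thus the 4 with the highest muscle sums, in a range of 4020 to 13692 CPM in NC and 1881 to 22953 CPM in VSD samples, with at least 5 of the 8 markers above 0. The part of these in the miR-122-5p levels was not tested.

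miR-192-5p in serum was measured at 1202 to 3469 CPM in NC (median 1801) and 1383 to 4347 CPM in VSD samples (median 2020), a log2 difference of 0.09 ± 0.27 (95% interval -0.47 to 0.65, edgeR, adjusted p = 0.894). miR-194-5p was measured at 50.4 to 181 CPM in NC (median 109) and 24.96 to 187 CPM in VSD samples (median 84.2), a log2 difference of -0.35 ± 0.37 (95% interval -1.13 to 0.43, edgeR, adjusted p = 0.708). Serum libraries held 8 to 90 counts of miR-194-5p, and neither difference was larger than the spread between samples.

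**Figure D4:**
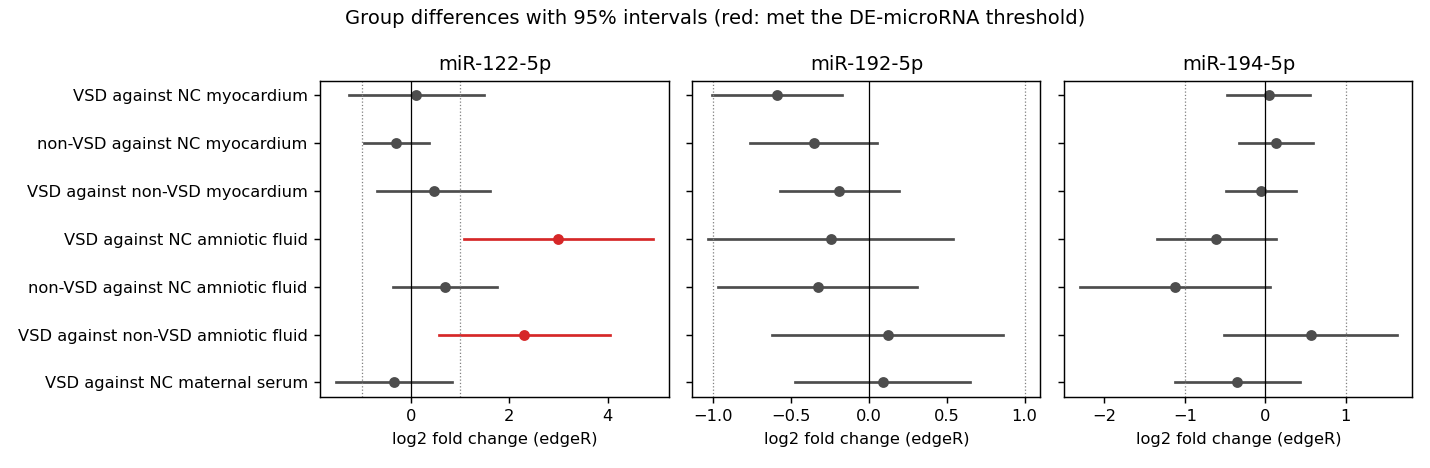
edgeR log2 fold change (points) with 95% intervals (lines) of the 3 members in the 7 comparisons, with dotted lines at 2-fold up and down and red for the results that met the DE-microRNA threshold; the panels have different scales. The 2 red points are miR-122-5p in VSD amniotic fluid against NC (2.998) and against non-VSD (2.31).

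Whether a member changed differently in one tissue than in another was tested directly, in 12 permutation tests within tissues. None passed at an adjusted p under 0.05 with TMM scaling. The change of miR-122-5p from NC to VSD was -0.57 in myocardium and 1.09 in amniotic fluid in mean log2 CPM, a difference of -1.65 (permutation p = 0.195, adjusted p = 0.468). The change of miR-194-5p from NC to non-VSD differed by 1.87 between myocardium (0.17) and amniotic fluid (-1.70), with permutation p = 0.00678 and an adjusted p of 0.0814. With library size only that difference was 2.09 (adjusted p = 0.0148), and without non-VSD replicate 7 it was 1.06 (permutation p = 0.0134, adjusted p = 0.161).

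Among samples of one tissue, after each group's mean was subtracted, relations between the members were tested by permutation within groups (9 relations). In serum miR-192-5p and miR-194-5p had Pearson's r = 0.75 (permutation p = 0.00396, adjusted p = 0.0178) and Spearman's rho = 0.74 (permutation p = 0.00465, adjusted p = 0.0418) over 14 samples. Without the 2 samples farthest from the median of the first-named member, r was 0.64 (permutation p = 0.0320, adjusted p = 0.144). Within groups r was 0.75 (NC) and 0.77 (VSD). miR-122-5p and miR-192-5p had r = 0.79 (permutation p = 0.00222, adjusted p = 0.0178; 0.79 within NC and 0.80 within VSD) and rho = 0.45 (permutation p = 0.122, adjusted p = 0.293), with r = 0.72 (permutation p = 0.0228) without the 2 farthest. miR-122-5p and miR-194-5p had r = 0.54 (permutation p = 0.0607, adjusted p = 0.155) and rho = 0.38 (p = 0.204).

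These values span the 4 serum libraries that stood apart in miR-122-5p. Over the other 10, all under 10000 CPM of it, r of miR-122-5p was -0.33 with miR-192-5p (permutation p = 0.382, rho = -0.33) and -0.50 with miR-194-5p (permutation p = 0.179, rho = -0.42). Neither value could be told from no relation, and with miR-192-5p r was -0.75 within NC and 0.07 within VSD. The cut was set on miR-122-5p itself after the data were seen, which narrows its range. A change of sign is therefore not shown, and the positive values over all 14 were not seen over these 10. For miR-192-5p with miR-194-5p the value was 0.48 (permutation p = 0.180, 0.67 within NC and 0.30 within VSD), in the same direction as over all 14.

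In amniotic fluid and myocardium no relation was detected over the groups together for the pair encoded in a shared cluster. miR-192-5p and miR-194-5p had r = 0.10 (permutation p = 0.621) and rho = 0.36 (p = 0.0898) over the 21 amniotic fluid samples. Without the 2 samples farthest from the median of miR-192-5p, r was -0.04. That choice takes no account of miR-194-5p, so it does not address the library without miR-194-5p counts. Within groups r was 0.73 (NC), 0.53 (VSD) and -0.26 (non-VSD, the group of the library without miR-194-5p counts), with 7 samples each and no test. In myocardium r was -0.0025 (permutation p = 0.992) and rho was -0.13 (p = 0.591), where r was 0.07 without the 2 farthest, and within groups it was 0.22 (NC), -0.06 (VSD) and -0.79 (non-VSD).

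The microRNAs with the pattern most like each member were named by Spearman's rho of log2 CPM over all samples of a tissue, as a description that shares libraries and scaling. In amniotic fluid (21 samples, 273 microRNAs) miR-192-5p was most like miR-375-3p (rho = 0.83), a microRNA of pancreatic islet and gut endocrine cells, followed by its seed relative miR-215 (0.68) and miR-99b-5p (0.60). miR-194-5p was followed there by miR-322-5p (0.69), miR-30a-5p (0.67) and the epithelial miR-141-3p (0.65), and miR-122-5p by miR-493-5p (0.78), miR-380-3p (0.61) and the muscle microRNA miR-1-3p (0.59). None of the 3 members was among the 3 closest to another member in any tissue.

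In serum (14 samples, 219 microRNAs) miR-122-5p was most like miR-676 (0.78), miR-184 (0.75) and again miR-1-3p (0.73). miR-192-5p was most like miR-146a-5p (0.89), miR-29b-3p (0.88) and miR-29c-3p (0.78), and miR-194-5p was most like the muscle microRNAs miR-133a-3p (0.91) and miR-133b-3p (0.89), with miR-29c-3p (0.90) between them. In myocardium (21 samples, 483 microRNAs) the closest were miR-222-3p (0.56), let-7a-2-3p (0.55) and let-7e-5p (0.51) for miR-122-5p. They were miR-128-3p (0.87), miR-193b-3p (0.84) and miR-1839-5p (0.83) for miR-192-5p, and miR-106b-5p (0.79), miR-362-3p (0.72) and miR-26b-5p (0.70) for miR-194-5p. miR-122-5p thus had lower values of rho in myocardium than the other members.

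Other microRNAs abundant in liver, pancreas or gut were counted as a list of 8 with the passenger arms and miR-215, of which 7 were listed in each tissue and 2 or 3 were tested. Of the 3 tested in amniotic fluid, 1 met the threshold in VSD against NC (miR-215, as lower), 0 in non-VSD against NC and 0 in VSD against non-VSD. Of the 2 tested in myocardium, 0, 0 and 1 did in the same order, and in serum 0 of 2 did. miR-148a-3p, a microRNA abundant in liver, had a median of 56737 CPM in myocardium, 707 CPM in amniotic fluid and 11180 CPM in serum, so its order of tissues differed from that of every member. It met the threshold in none of the 7 comparisons, and its log2 difference between VSD and NC amniotic fluid was 0.27 ± 0.62 (edgeR, adjusted p = 0.849). In amniotic fluid VSD replicates 3 and 4 it was measured at 901 and 1650 CPM, within the NC range of 201 to 2452 CPM. miR-802-5p and miR-802-3p, known from liver and pancreas, did not exceed 56.2 CPM in any library. miR-375-3p met the threshold as higher in VSD than in non-VSD myocardium (log2 difference 1.81 ± 0.86, edgeR, adjusted p = 0.426), with 44.2 to 452 CPM against 5.37 to 104 CPM. It is also 1 of the 8 epithelial markers, which all had values above 0 in this comparison (median 1.61, 2 called higher). Its highest VSD levels were in replicates 1, 4 and 5 (452, 381 and 314 CPM). Without the 3 libraries poor in muscle microRNAs its log2 difference was 1.06 (edgeR, adjusted p = 0.638) and the call was lost, while against NC it became 1.86 (edgeR, adjusted p = 0.122) and was called higher, from 0.70 with all libraries.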

How the data were processed

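Small RNA libraries of 56 rat samples were analysed. The authors filtered the reads for quality (FASTX-Toolkit; bcl2fastq 2.19 per the labels) and deposited raw counts per mature microRNA; the aligner, annotation and use of molecular identifiers are not given in the sources used here. The 70 other per-sample columns (CPM or scaled values), and the columns of the authors' own comparisons (fold changes and p-values), were not used. Both amniotic fluid tables were joined, with unlisted rows set to 0. Depth limits a count of 0 to at most 1.77 CPM in myocardium, 38.4 CPM in amniotic fluid and 20.3 CPM in serum (3 counts, counting error only). No 2 libraries were identical.

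Counts were tested in R 4.3.3 with edgeR 4.0.16 (filterByExpr with a minimum count of 10 and total of 15, TMM, quasi-likelihood test, Benjamini-Hochberg adjustment over all microRNAs tested). VSD and non-VSD were compared in a fit of 3 groups. For single values, mean log2 CPM was compared by exact two-sided permutation (3432 groupings) or by 100000 permutations, with a prior count of 2, and for tissue levels without TMM. The procedure was tested on simulated data. For edgeR the simulated spread was the same for every microRNA and no library was made extreme. Calls that rest on 1 library were therefore not covered by it. Members, relatives and marker lists were chosen with earlier results of these data known. Named besides the members were 8 relatives, the markers as sums, and the 3 microRNAs with the highest rho. The alternatives tried were library size only, limma 3.58.1 on log2(CPM + 1), DESeq2 1.42.0, no filter, other samples in the fit, a replicate block, other prior counts or TMM across tissues, and each sample left out. Added after the data were seen were fits without the 3 libraries poor in muscle microRNAs, without amniotic fluid non-VSD replicate 7, serum samples under 10000 CPM of miR-122-5p, and permutations with library size only. Plots were made in Python 3.11.15 (matplotlib 3.10.9).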

Additional observations from a re-analysis of the deposited data

Results flagged for a closer look

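Dixon's criterion flags about 1 in 20 groups by chance where values are normally distributed. It was applied to CPM without checking this, so an excess over chance is not shown. By this criterion the highest miR-122-5p value stood apart from the rest of its group in 4 of the 24 combinations of member and group examined. These were myocardium NC replicate 2 (1765 CPM), myocardium VSD replicate 3 (3129 CPM), amniotic fluid VSD replicate 4 (33502 CPM) and maternal serum VSD replicate 4 (44049 CPM). miR-192-5p and miR-194-5p gave 0 such values. Myocardium NC replicate 2 was also the library with the lowest sum of muscle microRNAs and the second highest sum of epithelial microRNAs in myocardium, and the part of these in its miR-122-5p level was not tested.

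The change of miR-194-5p from NC to non-VSD differed between myocardium and amniotic fluid by 1.87 in mean log2 CPM (permutation p = 0.00678, adjusted p = 0.0814 over 12 tests). In CPM without TMM scaling, miR-194-5p was lower than the NC median in 7 of 7 non-VSD amniotic fluid samples and higher in 6 of 7 non-VSD myocardium samples. With TMM the change in myocardium was 0.17 (exact permutation test, p = 0.435). Amniotic fluid non-VSD replicate 7 had 0 counts of miR-194-5p. Without it the change in amniotic fluid was -0.89 (exact permutation test, p = 0.0175), and the difference between the tissues was smaller, as given above.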

How the results depend on the processing

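Of 426 alternative values for the 21 member differences, 389 kept the direction and the side of the DE-microRNA threshold. With limma, miR-122-5p became -0.56 (VSD against NC) and -0.39 (VSD against non-VSD) in myocardium and lost its calls in amniotic fluid (1.12 and 0.87), and miR-192-5p between VSD and non-VSD amniotic fluid became -0.057, while miR-194-5p moved to -2.15 (non-VSD against NC) and 1.59 (VSD against non-VSD) in amniotic fluid, uncalled as before. Scaled by library size only, miR-194-5p between VSD and non-VSD myocardium was 0.084. miR-194-5p in non-VSD amniotic fluid passed the threshold by DESeq2 (-1.09), without a filter (-1.12) and in the fit of 3 groups (-1.19). The cause was not tested.

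Same-numbered samples share only a number: the correlations of their deviations ran from -0.64 to 0.52, and in no comparison were all 7 over 0.1. With the number as a block, miR-122-5p was -0.51 and -0.038 in myocardium and 0.90 and 0.72 in amniotic fluid (no calls), miR-192-5p between VSD and non-VSD amniotic fluid was -0.0062, and DE-microRNAs numbered 14 (VSD against non-VSD myocardium, 25 without the block) and 19 (non-VSD against NC amniotic fluid, 30 without).

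Without the filter, DE-microRNAs numbered 52, 35 and 40 in myocardium (VSD and non-VSD against NC, VSD against non-VSD; 32, 19 and 25 with it), 84, 109 and 88 in amniotic fluid (17, 30 and 9) and 34 in serum (10). Without the 3 libraries poor in muscle microRNAs they numbered 55 (VSD against NC) and 15 (VSD against non-VSD), and by limma 10 in VSD amniotic fluid.

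TMM over the tissues gave -0.63 for miR-122-5p (amniotic fluid minus myocardium) and 0.35 for miR-192-5p (serum minus amniotic fluid), and the other 7 tissue differences kept their direction. With library size only, differences of change between tissues were 0.32 (miR-122-5p, VSD, myocardium minus serum), 0.31 and 0.22 (miR-192-5p, VSD and non-VSD, myocardium minus amniotic fluid) and 2.09 (miR-194-5p, non-VSD). Without the 2 farthest samples, r was 0.0097 (miR-122-5p with miR-192-5p) and 0.073 (miR-192-5p with miR-194-5p) in myocardium, 0.17 (miR-122-5p with miR-192-5p), 0.072 (miR-122-5p with miR-194-5p) and -0.036 (miR-192-5p with miR-194-5p) in amniotic fluid, and 0.72 (miR-122-5p with miR-192-5p) and 0.64 (miR-192-5p with miR-194-5p) in serum. Scaled by library size only, r of miR-122-5p with miR-192-5p in myocardium was 0.13. Without amniotic fluid VSD replicate 4, r of miR-122-5p with miR-194-5p was 0.031. Among the 10 serum samples under 10000 CPM of miR-122-5p, r was -0.33 and -0.50 for miR-122-5p with miR-192-5p and miR-194-5p, and 0.48 for those 2.

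With each library left out in turn, miR-122-5p ranged in myocardium from -0.84 to 0.36 (VSD against NC), -0.46 to -0.01 (non-VSD against NC) and -0.45 to 0.69 (VSD against non-VSD), in amniotic fluid from 1.07 to 3.23, 0.41 to 0.88 and 0.52 to 2.60, and in serum from -1.09 to -0.014. In the same order miR-192-5p ranged from -0.72 to -0.56, -0.44 to -0.29, -0.26 to -0.12, -0.56 to 0.0054, -0.46 to -0.08, -0.19 to 0.33 and -0.041 to 0.23. miR-194-5p ranged from -0.15 to 0.12, 0.02 to 0.26, -0.12 to 0.018, -0.79 to -0.42, -1.35 to -0.93, 0.34 to 0.75 and -0.54 to -0.17. DE-microRNAs numbered 27 to 83 (83 without NC replicate 2), 16 to 26, 16 to 37, 14 to 22, 25 to 37, 7 to 16 and 5 to 15. Serum libraries held 8 to 90 counts of miR-194-5p.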
